A study of Rattus norvegicus with 18 samples.

Results

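Mesenchymal stromal cells (MSCs) of bone marrow are plastic-adherent cells that can become adipocytes, and 10 genes of the adipocyte program were followed in cultured rat MSCs from early to very late passage. They are the transcription factor genes Pparg, Cebpa, Cebpb and Cebpd, the lipid uptake genes Lpl, Cd36 and Fabp4, the genes of the secreted factors Adipoq and Cfd, and Ucp2, which encodes a mitochondrial carrier. Members were found by the gene symbols that the array annotation gives, and it has 1 probe for each of 8 of the 10 genes. Cebpd and Fabp4 matched no probe by symbol, Entrez ID or accession and were not measured here. A signal above the background was found in at least 1 group for 7 of the 8 genes, among 9531 genes that could be tested in all, and the remaining one, Adipoq, was detected on none of the 18 arrays.

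The cells were grown from bone marrow of male Sprague Dawley rats, either young at 3 weeks (yMSCs) or aged at 12 months (aMSCs), and their mRNA was measured after passage 2 (P2), 30 (P30) and 100 (P100) on Illumina RatRef-12 BeadChips. Each of the 6 groups held 3 arrays. The rats carried no transgene and the cells no treatment that the labels name, and culture was in expansion medium, while adipogenic medium is described for the differentiation assays only. The late cells are described as a pair of long-term cultures, and nothing states how 3 arrays were taken from each of them at P30 and P100, so the p-values below measure the spread between arrays, which may be technical.

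Adipogenesis runs through a relay of transcription factors. Cebpb and Cebpd act early, they switch on Pparg and Cebpa, and these maintain each other's expression and turn on genes of lipid uptake, storage and secretion. Marrow stromal cells hold Pparg at a low level and are a source of the fat cells of the marrow. Several of these genes are not limited to fat cells: Lpl, Cd36 and Ucp2 are also made by macrophages.

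The scanner intensity is the mean fluorescence of a probe's beads, and a probe was called detected on an array at a detection p of at most 0.01 against the negative control beads. The log2 signal is the intensity after background correction, addition of an offset of 16, and quantile normalization. A gene counted as called, higher or lower, when limma gave an adjusted p under 0.05 and a fold of at least 1.5, with Benjamini-Hochberg adjustment over the 9531 genes. Where no array of a group detected a gene, the fold is a bound, written as at least N-fold, which sets the bright group against the lowest signal detected on each dim array. Such a fold is only as large as the background allows, and the log2 difference beside it depends on the offset.

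The arrays of P2 stood apart in their background. Undetected probes had a median intensity of 31.3 to 34.7 on the 6 arrays of P2 and of 51.6 to 56.2 on the 12 later arrays, so passage and this background cannot be told apart in any comparison with P2. The number of arrays, 3 per group, limits the precision of each value. Of 7 defining adipocyte markers on the array, 6 (Adipoq, Lep, Cidec, Lipe, Pck1 and Retn) were detected on no array and the other one was Cfd itself. Stromal markers were present throughout, with 10 to 14 of 14 detected in a group. The labelled cell type thus had its markers, and the 10 genes are described as genes of a program and not as a mark of adipocytes. Of 26 macrophage and monocyte markers, 15 were detected in yMSCs P2 and 9 in aMSCs P2, against 1 in each late group.

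The promoters of the genes that moved together or apart are shown first. RefSeq start sites of the GRCr8 assembly gave 8 promoters for 7 of the 10 genes, each of 300 bases, from 250 before to 50 after the start. Printed are both starts of Pparg and that of Cebpa, regulators that fell together, and that of Ucp2, which moved the other way in yMSCs. Capitals mark matches to TATAAA, to TTNNGNAA, the core of the C/EBP site, to the full C/EBP palindrome TTGCGCAA, or to a direct repeat of AGGTCA spaced by 1 base, the element of PPARG, with up to 1 mismatch, on either strand. The 4 windows lie on the plus strand.
Pparg, first start (chr4:150096808-150097107): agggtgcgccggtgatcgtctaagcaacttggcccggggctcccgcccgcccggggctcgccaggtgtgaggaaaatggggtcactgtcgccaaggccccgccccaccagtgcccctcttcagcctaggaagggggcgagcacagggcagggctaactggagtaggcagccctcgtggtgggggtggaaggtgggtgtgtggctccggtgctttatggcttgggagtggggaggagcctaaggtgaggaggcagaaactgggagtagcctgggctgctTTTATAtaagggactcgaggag
Pparg, second start (chr4:150154522-150154821): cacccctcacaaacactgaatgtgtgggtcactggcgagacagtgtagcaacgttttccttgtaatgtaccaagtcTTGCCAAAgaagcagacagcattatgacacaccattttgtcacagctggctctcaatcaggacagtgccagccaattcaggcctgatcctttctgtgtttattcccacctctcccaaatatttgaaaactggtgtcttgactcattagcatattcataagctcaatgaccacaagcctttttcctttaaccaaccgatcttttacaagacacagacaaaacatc
Cebpa (chr1:96896334-96896633): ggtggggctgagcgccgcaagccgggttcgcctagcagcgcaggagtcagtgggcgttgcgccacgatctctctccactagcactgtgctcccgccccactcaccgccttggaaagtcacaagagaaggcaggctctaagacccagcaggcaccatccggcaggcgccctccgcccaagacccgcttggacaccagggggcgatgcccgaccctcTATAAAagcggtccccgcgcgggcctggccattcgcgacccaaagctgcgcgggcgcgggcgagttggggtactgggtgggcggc
Ucp2 (chr1:164251123-164251422): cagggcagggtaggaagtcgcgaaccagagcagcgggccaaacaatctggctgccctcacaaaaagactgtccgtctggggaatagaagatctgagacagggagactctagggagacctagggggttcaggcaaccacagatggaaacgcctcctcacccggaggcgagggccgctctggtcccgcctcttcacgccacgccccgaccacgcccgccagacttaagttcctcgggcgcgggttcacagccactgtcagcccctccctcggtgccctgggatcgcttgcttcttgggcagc
The first Pparg window held TATAAA on the minus strand, 29 to 34 bases after the start, and the Cebpa window held it 35 to 30 bases before the start. Among all 33469 rat promoters of this length, 14.2% held TATAAA. The second Pparg window held the C/EBP core once, from -174 to -167, as did 41.3% of all promoters. Neither TTGCGCAA, found in 0.17% of promoters, nor the direct repeat, found in 0.439% with up to 1 mismatch and in 0.0538% without, was in any of the 8 windows. The Ucp2 window held no match to these letters, and neither did the windows of Cfd, which fell in yMSCs, and of Adipoq. Of the windows not printed, that of Cebpb, which was not called, held TATAAA from -33 to -28. The Cd36 window held TATAAA from -175 to -170 and the C/EBP core from -243 to -236, both on the minus strand. Whether these letters go with the direction of change was not tested. A match is a description of letters only, and a missing one says nothing of the factor.

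Passage 30 was compared with passage 2 within each donor age, which asks how the genes changed in the first long stretch of culture. In yMSCs, Pparg, Cebpa, Lpl and Cfd fell and Ucp2 rose. The fall took in 4 of the 7 genes tested, where 16.4% of all genes tested were called lower, and the rise 1 of 7, where 16.4% were called higher. In aMSCs the same 4 genes and Ucp2 were called lower, 5 of 7 beside 20% of all genes, and none was called higher beside 19.3%. Cebpb and Cd36 were called in neither donor age. In bulk RNA of this kind, fewer cells of a type and less RNA per cell cannot be told apart.

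**Figure D1:**
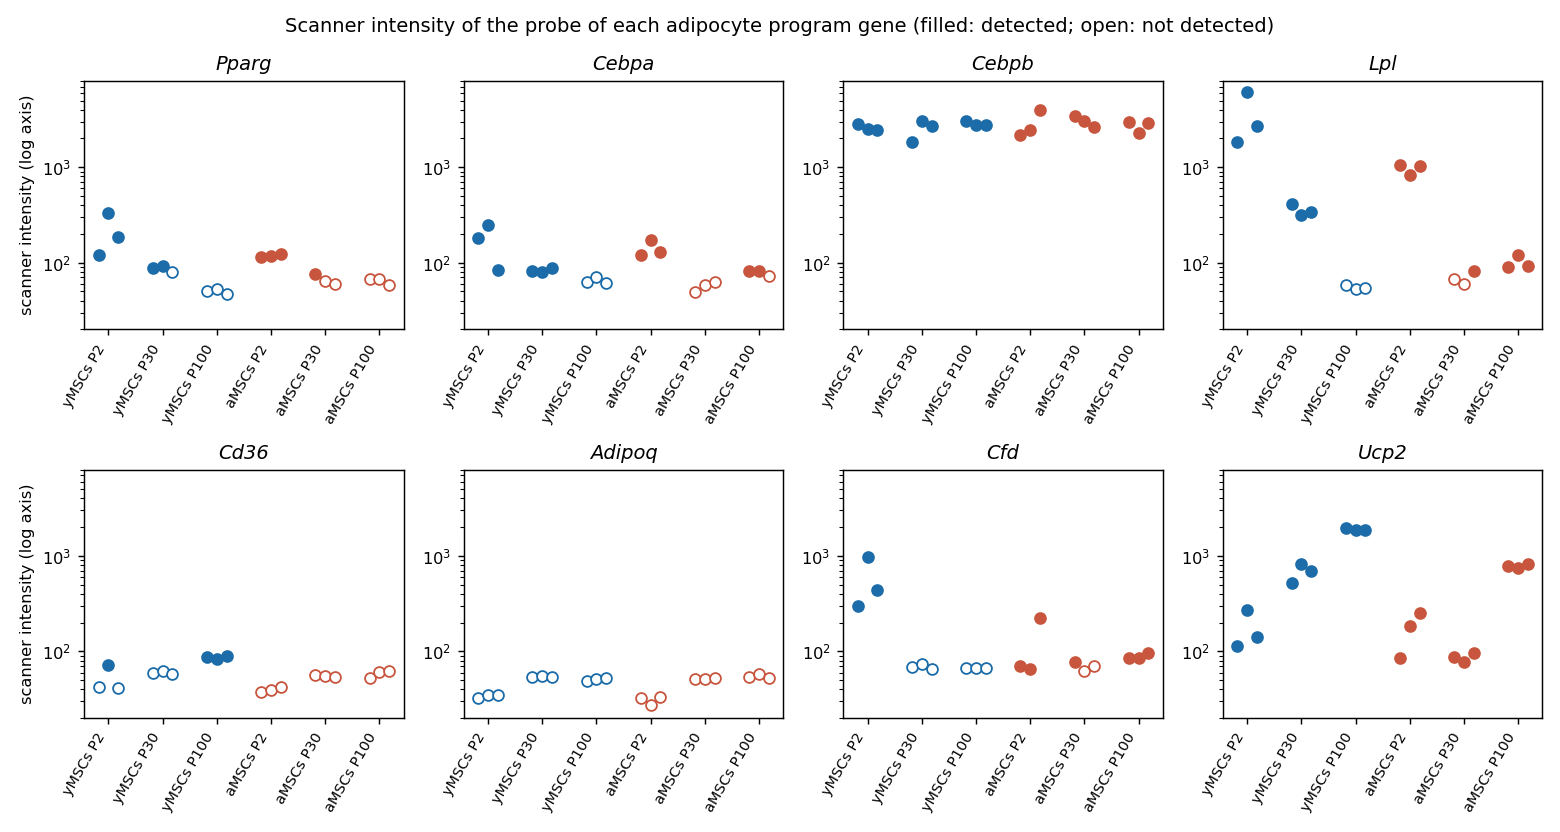
Scanner intensity (log axis) of the probe of each of the 8 genes on each array, by group, yMSCs in blue and aMSCs in red, filled where the probe was detected and open where it was not. Lpl lay at 835 or more on all 6 arrays of P2 and at 121 or less on the 9 late arrays other than those of yMSCs P30, Cebpb lay between 1816 and 4001 on all 18 arrays, and Ucp2 was highest on the arrays of yMSCs P100.

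Passage 100 compared with passage 2, which shares the P2 arrays with the comparison above, gave the same direction for Pparg, Cebpa and Lpl in both donor ages. In yMSCs, 4 genes fell (Pparg, Cebpa, Lpl and Cfd) beside 18.7% of all genes, and 2 rose (Cd36 and Ucp2) beside 20.6%. In aMSCs, 3 genes fell (Pparg, Cebpa and Lpl) beside 18.6%, and 1, Ucp2, rose beside 19.1%. Cd36 entered the test only through yMSCs P100, the one group in which it was detected, and its rise there is no support for the list as a whole.

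Between P30 and P100, arrays whose undetected probes had like medians, yMSCs and aMSCs parted. The arrays were not alike in detection. Those of aMSCs P100 detected 8218 to 9157 probes, those of aMSCs P30 7648 to 7951 and those of yMSCs P100 7593 to 7985. The lowest detected log2 signal was 4.95 to 5.23 in aMSCs P100 and 5.33 to 5.46 in aMSCs P30. Without normalization between arrays, 68% of all calls for aMSCs P100 against P30 were higher, in place of 53.8%. In yMSCs, Pparg and Lpl fell, beside 4.5% of all genes, and Cd36 and Ucp2 rose, beside 3.39%. As above, Cd36 entered the test through yMSCs P100 alone, and its rise is no support for the list. In aMSCs, Lpl and Ucp2 rose, beside 14.2%, and none of the 7 fell, beside 12.2%. The call of Lpl in aMSCs was lost under most alternatives, as given with that gene below.

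**Figure D2:**
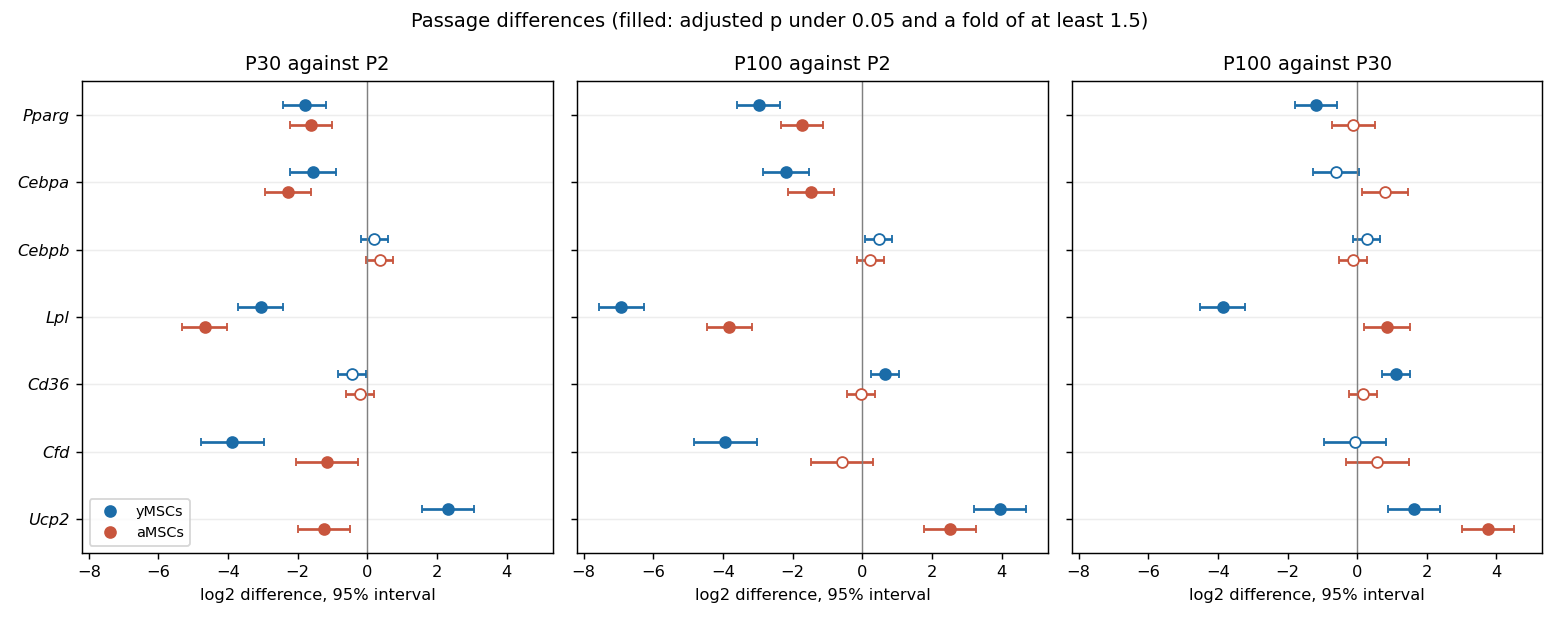
Log2 difference in signal between passages for the 7 tested genes, with 95% intervals from limma, in yMSCs (blue) and aMSCs (red); filled points passed the adjusted p and the fold. Lpl in yMSCs reached -6.92 at P100 against P2 and Ucp2 3.96, while the Cebpb points stayed between -0.12 and 0.47.

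Pparg encodes the nuclear receptor that is required for fat cell formation. Its intensity on the 3 arrays of yMSCs was 120, 328 and 187 at P2, 87.5, 92.3 and 78.9 at P30, and 50.3, 52.7 and 47.3 at P100. In aMSCs it was 113, 118 and 123 at P2, 75.7, 64.0 and 59.7 at P30, and 67.3, 67.2 and 58.9 at P100. Every P2 array of a donor age was above all its late arrays, and the probe was detected on all 6 arrays of P2, on 3 of 6 at P30 and on none at P100. The log2 signal fell by 1.80 (SE 0.29, adjusted p = 9.93e-05) in yMSCs and by 1.62 (SE 0.29, adjusted p = 0.000234) in aMSCs at P30, both in limma. At P100 Pparg was at least 3.84-fold lower than at P2 in yMSCs (adjusted p = 2.82e-07) and at least 2.85-fold lower in aMSCs (adjusted p = 0.000115). It fell again between P30 and P100 in yMSCs, by at least 1.1-fold (adjusted p = 0.0136), a call that was lost without yMSCs P30 replicate 2 (adjusted p = 0.0595) or yMSCs P100 replicate 3 (adjusted p = 0.0507), with an offset of 50 (-0.57, adjusted p = 0.146) and with a floor of 16 in place of the background correction (-0.90, adjusted p = 0.118). In aMSCs the log2 difference between P30 and P100 was -0.11 (95% interval -0.72 to 0.50). In order of level, yMSCs P2 and aMSCs P2 overlapped, as did yMSCs P30, aMSCs P30 and aMSCs P100, neighbour by neighbour, and yMSCs P100 lay below all others. No array of aMSCs P100 or yMSCs P100 detected Pparg, so their order is between undetected values.

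Cebpa encodes the C/EBP family member that works with PPARG in the mature fat cell. Its intensity in yMSCs was 182, 245 and 82.9 at P2, 80.8, 79.0 and 87.3 at P30, and 62.9, 70.3 and 61.3 at P100. In aMSCs the arrays read 121, 173 and 129 at P2, 49.8, 58.5 and 62.7 at P30, and 81.2, 82.1 and 72.0 at P100. On the log2 scale the P2 arrays of either donor age did not overlap with the late arrays, and yMSCs P2 replicate 3 was the lowest of its group. The signal fell at P30 by 1.56 on the log2 scale (SE 0.31, adjusted p = 0.000749) in yMSCs, and was at least 2.75-fold lower in aMSCs (adjusted p = 2.21e-05), where no array detected it. At P100 it was at least 2.97-fold lower than at P2 in yMSCs (adjusted p = 2.38e-05), while in aMSCs, detected on 2 of 3 arrays, it fell by 1.48 (SE 0.31, adjusted p = 0.000943). Between P30 and P100 the log2 difference was -0.62 (95% interval -1.28 to 0.04) in yMSCs and 0.79 (95% interval 0.13 to 1.45, adjusted p = 0.0588) in aMSCs, neither of them called.

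Cebpb encodes the C/EBP member that acts early, before Pparg. Over the 18 arrays its intensity had a lowest value of 1816, on yMSCs P30 replicate 1, and a highest of 4001, on aMSCs P2 replicate 3. It stood in the upper part of all probes, with a mean percentile of 96.8 to 97.7 in the 6 groups. None of the 9 comparisons of passage or donor age called it: log2 differences ran from -0.15 for aMSCs against yMSCs at P100 to 0.47 (95% interval 0.07 to 0.86) for yMSCs P100 against P2. The latter had an adjusted p of 0.0457 and missed the fold of 1.5. The ranges of each pair of neighbours in the order of the groups overlapped.

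Lpl encodes lipoprotein lipase, the enzyme that frees fatty acids from circulating lipoproteins. Its intensity in yMSCs was 1852, 6126 and 2682 at P2, 416, 313 and 337 at P30, and 58.2, 53.2 and 54.9 at P100. In aMSCs it was 1057, 835 and 1030 at P2, 67.0, 59.3 and 82.3 at P30, and 89.5, 121 and 92.0 at P100. On the log2 scale none of the 6 groups overlapped, in the order yMSCs P2, aMSCs P2, yMSCs P30, aMSCs P100, aMSCs P30 and yMSCs P100. The order of aMSCs P30 and yMSCs P100 is between values near or under the detection limit. In yMSCs Lpl was 8.33-fold lower at P30 than at P2 (log2 difference -3.06, SE 0.31, adjusted p = 7.41e-07) and at least 63.9-fold lower at P100 (adjusted p = 1.37e-11). In aMSCs it was 25.5-fold lower at P30 (-4.67, SE 0.31, adjusted p = 7.37e-09), with 1 of 3 arrays detecting it, and 14.1-fold lower at P100 (-3.81, SE 0.31, adjusted p = 3.53e-08), with all 3 detecting it. From P30 to P100 it fell at least 7.67-fold in yMSCs (adjusted p = 1.07e-07). In aMSCs it rose over the same stretch by 0.86 (SE 0.31, adjusted p = 0.0397), a call that was lost without aMSCs P30 replicate 1 or 2 or any 1 array of aMSCs P100, with adjusted p-values of 0.0556 to 0.159. The call was kept under 5 of the 13 alternatives other than leaving out 1 array. Among these 5, no fold threshold could not lose a call. The mean of all probes of a gene and detection on every array of a group left the signal of Lpl, with 1 probe, as it was. Among those that lost it were an offset of 50 (0.48, adjusted p = 0.197), no detection filter (0.0981) and the authors' rank invariant intensities (0.0517). Leaving out aMSCs P30 replicates 1 and 2 together gave 0.37 (adjusted p = 0.607).

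Cd36 encodes a scavenger receptor that takes up long-chain fatty acids. In yMSCs its intensity was 42.2, 72.6 and 41.6 at P2, 58.9, 62.4 and 58.4 at P30, and 86.8, 82.9 and 90.0 at P100. In aMSCs it lay at 37.9 to 42.4 at P2, 53.5 to 56.7 at P30, and 52.5 to 62.8 at P100. The probe was detected on the 3 arrays of yMSCs P100 and on yMSCs P2 replicate 2, and on no array of aMSCs. At P100 in yMSCs Cd36 was at least 1.34-fold higher than at P30 (adjusted p = 0.000714). This bound is under the fold of 1.5, and the call was lost with an offset of 50 (0.56 on the log2 scale, a fold under 1.5). Against P2 it was 0.66 higher on the log2 scale (SE 0.19, adjusted p = 0.00804), with overlap between the arrays. This call was lost without yMSCs P2 replicate 1 (adjusted p = 0.053) or replicate 3 (0.52 on the log2 scale, a fold under 1.5). It was also lost with an offset of 50 (0.345) or array weights (0.374), both a fold under 1.5. No normalization between arrays (adjusted p = 0.0724) and a fold of at least 2 lost it too.

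Cfd encodes adipsin, a serine protease of the complement pathway that fat cells secrete. Its intensity in yMSCs was 297, 968 and 442 at P2, 69.1, 73.2 and 65.6 at P30, and 67.1, 66.2 and 67.3 at P100. In aMSCs the intensity was 69.5, 65.6 and 226 at P2, 77.5, 61.9 and 70.0 at P30, and 85.5, 84.7 and 96.7 at P100. It was thus high on the 3 arrays of yMSCs P2 and on aMSCs P2 replicate 3. In yMSCs it was at least 11.7-fold lower at P30 (adjusted p = 1.9e-06) and at least 10.5-fold lower at P100 (adjusted p = 1.03e-06) than at P2. In aMSCs the fall at P30 was 1.16 (SE 0.42, adjusted p = 0.0313), and without aMSCs P2 replicate 3 it was 0.53 (adjusted p = 0.22). The call was also lost without aMSCs P30 replicate 2 (adjusted p = 0.102) or replicate 3 (adjusted p = 0.0603). It was lost too with an offset of 50 (adjusted p = 0.0873), no detection filter (0.0891) or only the arrays compared (0.0983). At P100 the difference in aMSCs was -0.58 (95% interval -1.48 to 0.32), with overlap between the arrays.

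Adipoq encodes adiponectin, the hormone that marks mature fat cells. The intensity ran from 27.4 to 34.8 on the 6 arrays of P2, from 50.7 to 54.6 at P30, and from 48.7 to 58.4 at P100, which is the level of the undetected probes of the same arrays. No array detected it, and no fold is given.

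Ucp2 encodes a carrier of the inner mitochondrial membrane that is found in many cell types, brown and white fat among them. In yMSCs its intensity was 114, 269 and 140 at P2, 515, 832 and 695 at P30, and 1975, 1873 and 1876 at P100. In aMSCs it was 84.2, 183 and 252 at P2, 86.5, 76.8 and 96.1 at P30, and 781, 749 and 814 at P100. All 18 arrays detected it, and within yMSCs the 3 passages did not overlap. The signal rose 5-fold at P30 (log2 difference 2.32, SE 0.35, adjusted p = 6.39e-05) and 15.5-fold at P100 (3.96, SE 0.35, adjusted p = 1.09e-07) in yMSCs. In aMSCs it fell at P30 (-1.25, SE 0.35, adjusted p = 0.00782) and rose at P100, 5.7-fold over P2 (2.51, SE 0.35, adjusted p = 2.27e-05) and 13.5-fold over P30 (3.76, SE 0.35, adjusted p = 4.43e-07). The call at P30 in aMSCs was lost without aMSCs P2 replicate 3 (-0.92, adjusted p = 0.0505), and also without aMSCs P30 replicates 1 and 2 together (-1.04, adjusted p = 0.147). Between P30 and P100 in yMSCs it rose 3.11-fold (adjusted p = 0.00557).

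Donor age was compared at each passage, which asks whether cells of old and young rats differ in these genes. At P2, Lpl and Cfd were lower in aMSCs, 2 of 7 beside 2.29% of all genes, and none was higher, beside 1.76%. Lpl was 3.15-fold lower (log2 difference -1.66, SE 0.31, adjusted p = 0.00293) and Cfd 5.77-fold lower (-2.53, SE 0.42, adjusted p = 0.00123), with no overlap between the 3 arrays of each donor age. Without aMSCs P2 replicate 3 the Cfd difference was -3.15 (adjusted p = 3.07e-05). Pparg (-0.74, 95% interval -1.35 to -0.13, adjusted p = 0.227), Cebpa (-0.11, 95% interval -0.77 to 0.55) and Ucp2 (-0.02, 95% interval -0.77 to 0.73) did not pass the test at P2. When the 6 arrays of P2 were fitted alone, none of the 7 genes passed: the adjusted p was 0.0764 for Lpl and 0.0817 for Cfd. Without yMSCs P2 replicate 1, Pparg passed (-1.15, adjusted p = 0.0074).

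At P30 Lpl and Ucp2 were lower in aMSCs, beside 9.53% of all genes, and none was higher, beside 8.12%. Lpl was 9.65-fold lower (-3.27, SE 0.31, adjusted p = 9.5e-07) and Ucp2 12-fold lower (-3.59, SE 0.35, adjusted p = 1.67e-06), again with no overlap. In aMSCs P30, Lpl was detected on 1 of 3 arrays, so the size of its fold depends on the offset. At P100 Lpl was higher in aMSCs, beside 10% of all genes, while Cd36 and Ucp2 were lower, beside 9.03%. Only yMSCs P100 brought Cd36 into the test, so its place in this count is no support for the list. Lpl was at least 1.44-fold higher in aMSCs (adjusted p = 0.00223), Cd36 at least 1.5-fold lower (adjusted p = 0.000859) and Ucp2 2.76-fold lower (-1.47, SE 0.35, adjusted p = 0.00576). With an offset of 50 in place of 16, the Lpl call (0.76, adjusted p = 0.0608) and the Cd36 call (-0.52, a fold under 1.5) at P100 were lost. Of all calls at P100, 52.6% were higher in aMSCs, and 71.1% were without normalization between arrays. Because the late groups are described as a pair of cultures, donor age and single culture cannot be told apart at P30 and P100.

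**Figure D3:**
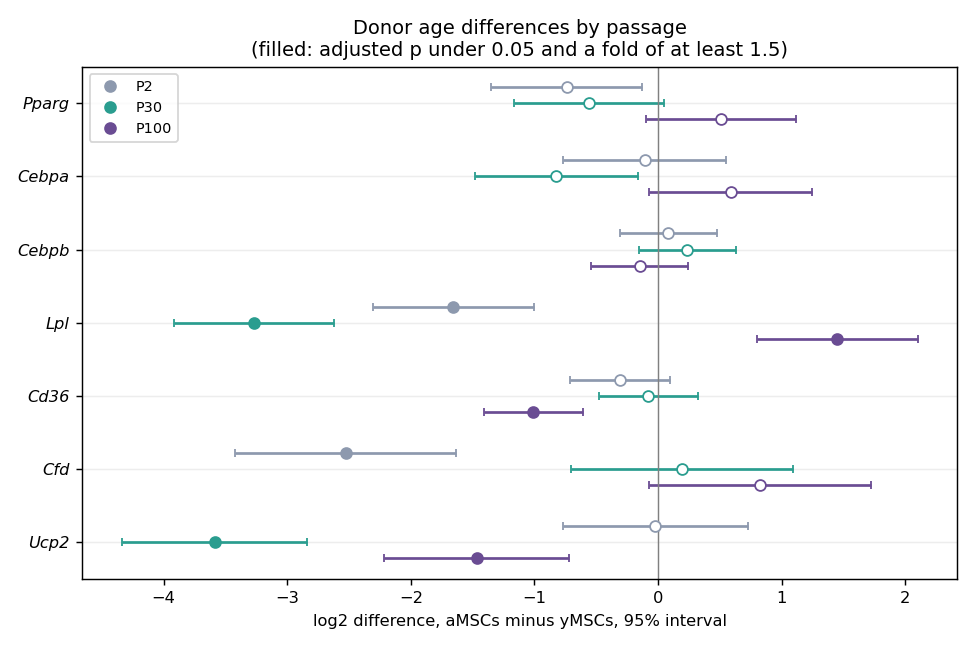
Log2 difference in signal of aMSCs minus yMSCs for the 7 tested genes at P2, P30 and P100, with 95% intervals from limma; filled points passed the adjusted p and the fold. Lpl lay at -1.66, -3.27 and 1.45 at the 3 passages and Ucp2 at -0.02, -3.59 and -1.47.

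Whether the passage change itself differed between aMSCs and yMSCs was tested as an interaction, aMSCs minus yMSCs. Each interaction uses late groups, so here too donor age and single culture cannot be told apart. For P30 against P2 the interaction was called for 3 of 7 genes, beside 11.8% of all genes. Ucp2, up in yMSCs and down in aMSCs, differed by -3.57 (SE 0.50, adjusted p = 0.000159). Cfd fell less in aMSCs, with a difference of 2.72 (SE 0.60, adjusted p = 0.00675), and Lpl fell more, with a difference of -1.62 (SE 0.43, adjusted p = 0.0231). For Cfd, aMSCs minus yMSCs was -2.53 at P2 and 0.19 (adjusted p = 0.807) at P30. Its log2 signal on aMSCs P2 replicates 1 and 2 was 5.71 and 5.61, near the detection limit, which left little room to fall. For P100 against P2 it was called for Lpl (3.11, SE 0.43, adjusted p = 7.88e-05) and Cfd (3.35, SE 0.60, adjusted p = 0.000823), beside 13.7% of all genes. Pparg, at 1.25 (adjusted p = 0.0508), and Ucp2, at -1.45 (adjusted p = 0.0664), lay just outside the threshold. For P100 against P30 it was called for 4 of 7 genes, beside 21.9%: Lpl (4.72, SE 0.43, adjusted p = 6.63e-07), Ucp2 (2.12, SE 0.50, adjusted p = 0.00627), Cebpa (1.41, SE 0.44, adjusted p = 0.0299) and Cd36 (-0.93, SE 0.27, adjusted p = 0.0201). Cd36 entered the test only through yMSCs P100 and was detected in neither late group of aMSCs, so its place in this count is no support for the list. Some of these calls depended on the processing or on single arrays. With an offset of 50, Lpl for P30 against P2 had an adjusted p of 0.221 and Cebpa one of 0.142, and the Cd36 fold was under 1.5. Lpl was also lost with no detection filter (adjusted p = 0.0683) or only the arrays compared (0.0676), Cebpa with a floor of 16 (0.0772), no detection filter (0.0784) or array weights (0.0586), and Cd36 with no normalization between arrays (0.103) or array weights (0.0647). The Lpl call for P30 against P2 was lost without yMSCs P2 replicate 1 or 3, yMSCs P30 replicate 1, aMSCs P2 replicate 1, or aMSCs P30 replicate 1 or 2 (adjusted p 0.0512 to 0.0703). The Cebpa call was lost without yMSCs P30 replicate 3, yMSCs P100 replicate 1 or 3, aMSCs P30 replicate 1, or aMSCs P100 replicate 1 or 2 (adjusted p 0.0539 to 0.066), and the Cd36 call without aMSCs P100 replicate 1 (adjusted p = 0.0516). Without aMSCs P30 replicates 1 and 2 together, the calls of Cfd for P30 against P2 (adjusted p = 0.0595) and of Ucp2 for P100 against P30 (adjusted p = 0.0614) were lost, as were those of Lpl for P30 against P2 and of Cebpa and Cd36. Without aMSCs P2 replicate 3 the Cfd interactions were 3.34 for P30 and 3.96 for P100 against P2. Where a group was undetected, as Lpl and Cfd in yMSCs P100, the size of the interaction depends on the offset.

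Macrophage and monocyte markers moved with some of these values and not with others. The summed signal of the 26 markers was 2730, 7450 and 2910 on the arrays of yMSCs P2 and 1130, 1250 and 2720 on those of aMSCs P2. It was 284 to 374 on the 6 arrays of P30 and 530 to 696 on the 6 of P100, where Cd14 alone was detected on every array and Laptm5 was detected on 2 of the 12 late arrays. Lpl, Cfd, Pparg, Cebpa, Cd36 and Ucp2 all had their highest value of the group on yMSCs P2 replicate 2, the array with the largest sum, and Cfd was high in aMSCs P2 on replicate 3 alone, where the sum was largest too. Ucp2 was also highest there among the aMSCs P2 arrays, whereas Lpl was highest on replicate 1 and Cebpa on replicate 2. The log2 signal of Lpl on these arrays lay close together, at 9.59 to 9.93. Among the late arrays Lpl was highest in yMSCs P30, where the sum was low. The markers Itgam, Itgb2, Fcgr2b, Cd163, Msr1, Marco, Spi1 and Cx3cr1 were detected on no array. Without yMSCs P2 replicate 2, Lpl in aMSCs against yMSCs at P2 was -1.18 (adjusted p = 0.00638) and Cfd -2.05 (adjusted p = 0.00745). Pearson's r was taken between the log2 signal of each tested gene and the log2 of the sum. Over the 6 arrays of P2 it was 0.97 for Cfd, 0.88 for Lpl, 0.825 for Cd36 and 0.80 for Pparg. For Ucp2 it was 0.59, for Cebpa 0.32 and for Cebpb 0.24. Over the 12 late arrays it was 0.21 for Cfd, -0.51 for Lpl, 0.75 for Cd36 and -0.73 for Pparg. For Ucp2 it was 0.76, for Cebpa 0.07 and for Cebpb 0.31. The part of these markers in the results was not tested.

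**Figure D4:**
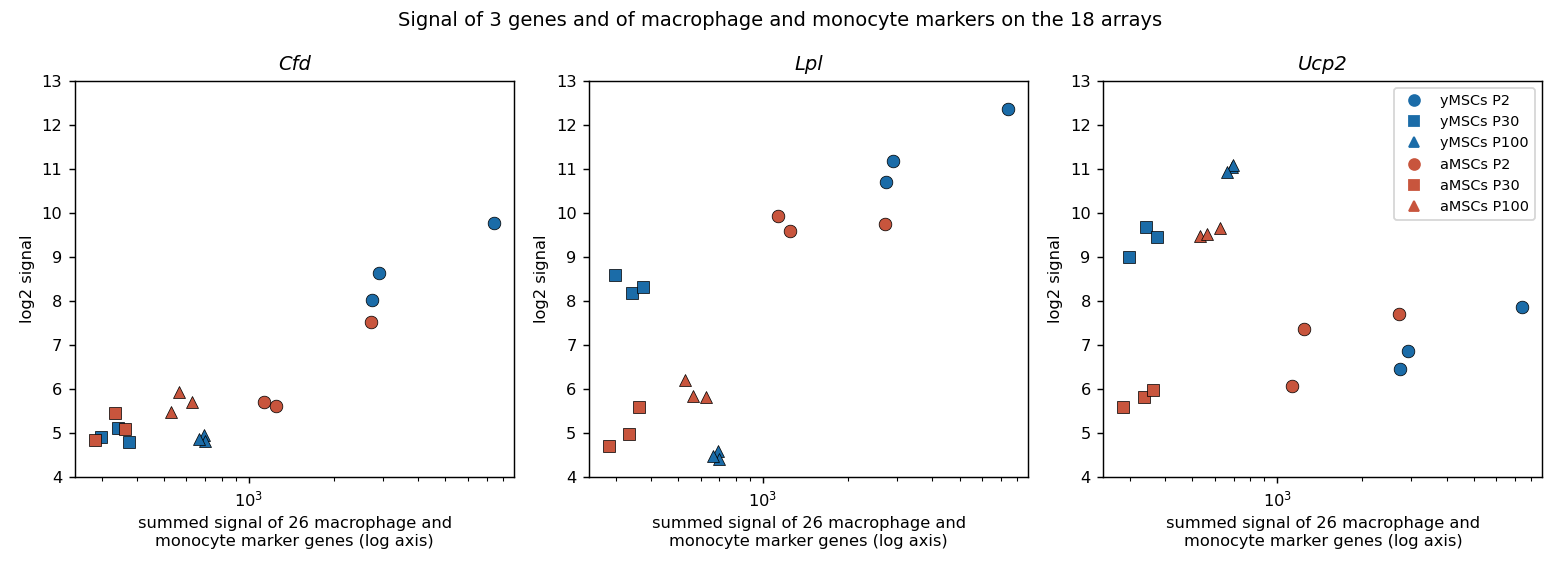
Log2 signal of Cfd, Lpl and Ucp2 on each of the 18 arrays against the summed signal of 26 macrophage and monocyte markers (log axis), yMSCs in blue and aMSCs in red, with a symbol for each passage. The array with the largest sum, 7450, had the highest Cfd and Lpl, while Ucp2 was highest on the yMSCs P100 arrays with sums of 663 to 696.

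Across the 18 arrays the log2 values of the falling genes ran together. Pearson's r was 0.95 between Pparg and Lpl, 0.85 between Pparg and Cebpa, and 0.84 between Pparg and Cfd, while Ucp2 had -0.48 with Pparg. These are descriptions over 18 arrays of 6 groups, which share passage and background. Among the named genes tested, those most like Pparg were Neto2 and Ndrg2 (r = 0.96 each) and Adam23 (0.95), those most like Lpl were Tdrp and Enpp1 (0.97 each) and Sulf2 (0.96), and those most like Cebpa were Slc31a2, Snapin and Gnb5 (0.93 to 0.94). For Cfd they were C1qc (0.97), Cd93 and C1qb (0.96 each), C1qb and C1qc being in the macrophage and monocyte list. Ucp2 was most like Exo5 (0.96), Cd83 and Fli1 (0.94 each), Cd36 most like C1h16orf54 (0.94), Chrnb1 (0.88) and Igfbpl1 (0.82), and Cebpb most like Amdhd2 and Cpsf7 (0.81 each) and Tmem134 (0.80).

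The wider pathway was read from 8 lists of regulators, inhibitors and lipid genes, 152 genes on the array, 95 of them tested and none of them one of the 10 genes. At P30 against P2, 10 rose and 24 fell in yMSCs, which is 10.5% and 25.3% beside 16.4% and 16.4% of all genes tested. In aMSCs 17 rose and 26 fell, 17.9% and 27.4% beside 19.3% and 20%. At P100 against P2, 14 rose and 34 fell in yMSCs, 14.7% and 35.8% beside 20.6% and 18.7%, and 22 rose and 30 fell in aMSCs, 23.2% and 31.6% beside 19.1% and 18.6%. The share that rose in aMSCs at P30 was thus near that of all genes. The median log2 difference of the 95 genes was -0.04 in yMSCs and 0.07 in aMSCs at P30, beside 0.04 and 0.05 over all genes, and -0.13 and -0.05 at P100, beside 0.06 and 0.03. The shares of all genes given here are those to set beside the lists below. They depend on the normalization. Of all genes, 1563 were called lower at P30 in yMSCs, 2083 without normalization between arrays and 2226 with the authors' rank invariant intensities. In aMSCs these numbers were 1907, 2533 and 2350. The lists were counted in the main fit only.

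Adipogenic regulators, transcription factors and signals that promote the program, had 16 members tested. At P30 against P2, 1 rose and 5 fell in yMSCs and 4 rose and 5 fell in aMSCs, with medians of -0.29 and 0.24. At P100, 2 rose and 6 fell in yMSCs and 3 rose and 5 fell in aMSCs, where 20.6% and 18.7%, and 19.1% and 18.6%, of all genes did, so the 3 that rose in aMSCs are near the background. Ebf1, an early B cell factor that acts in adipogenesis, stood at 7.96 ± 0.53 (log2 signal, SD, n = 3) for yMSCs P2 and at 8.05 ± 0.11 for aMSCs P2. At P100 it was not detected in yMSCs (4.97 ± 0.29) and lay at 7.59 ± 0.27 in aMSCs. In yMSCs it was at least 5.83-fold lower than at P2 (adjusted p = 1.34e-08). The change differed between aMSCs and yMSCs by 2.53 (adjusted p = 2.63e-05), a size that depends on the offset. Klf4, a factor of the early relay, fell in all 4 comparisons, with log2 differences of -2.94 at P30 (adjusted p = 2.55e-06) and -2.46 at P100 (adjusted p = 1.17e-05) in yMSCs, and of -1.23 and -1.37 in aMSCs. Among 15 genes listed as inhibitors of adipogenesis, 4 rose and 6 fell in yMSCs and 3 rose and 5 fell in aMSCs at P100. Id2, which binds basic helix-loop-helix factors, fell in the 4 comparisons, with log2 differences of -3.13 to -1.36. Whether Id2 acts as an inhibitor in these cells was not tested. Wnt5a, a Wnt ligand, had log2 differences of -1.84 (adjusted p = 4.22e-05) in yMSCs and -1.26 (adjusted p = 0.00142) in aMSCs at P100. In the list named C/EBP family and partners, 6 tested, 2 rose and 0 fell at P30 in each donor age. At P100, 1 rose and 2 fell in yMSCs and 2 rose and 2 fell in aMSCs, with medians of -0.14 and -0.17. Of the pair named by the rule, Cebpz rose by 0.92 in yMSCs and 1.18 in aMSCs at P100. It shares the C/EBP name and is not taken here as a factor of the relay. Nfil3, a basic leucine zipper factor, rose at P30 in both donor ages (1.15 and 1.18).

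Of 14 genes of lipid storage and lipolysis, 2 rose and 5 fell in yMSCs and 1 rose and 4 fell in aMSCs at P100 against P2. The shares of all genes were 20.6% and 18.7% in yMSCs and 19.1% and 18.6% in aMSCs. G0s2, which inhibits the lipase that breaks down stored fat, was at least 4.89-fold lower at P100 in yMSCs (adjusted p = 3.8e-08) and at least 5.05-fold lower in aMSCs (adjusted p = 9.24e-08), detected on no array of either. Cav1, of the caveolae, was called in 1 of the 4 comparisons, lower in aMSCs at P30 (-3.05, adjusted p = 0.00909), where its log2 signal had an SD of 2.93 over the 3 arrays and 2 of them detected it.

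Of 14 genes of fatty acid uptake and binding, 7 fell in yMSCs and 7 in aMSCs at P100 against P2, beside 18.7% and 18.6% of all genes, and 1 rose, in aMSCs. At P30, 0 were called higher and 5 lower in yMSCs (median -0.33), and 4 higher and 2 lower in aMSCs (median 0.23), a difference that was not tested over the list. Apoe, a lipid carrier that macrophages make in large amounts, stood at 10.79 ± 1.18 (log2 signal, SD, n = 3) for yMSCs P2 and at 8.25 ± 0.85 for aMSCs P2, and was detected in no late group. At P100 it was at least 41.5-fold lower in yMSCs (adjusted p = 4.73e-09) and at least 8.88-fold lower in aMSCs (adjusted p = 2.95e-06), and at P2 the difference of aMSCs from yMSCs was -2.54 (adjusted p = 0.00132). Fabp3, an intracellular fatty acid binding protein, was not called at P30 and fell at P100, with log2 differences of -3.70 (adjusted p = 2.27e-08) in yMSCs and -2.93 (adjusted p = 4.76e-07) in aMSCs.

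Of 9 tested genes of fatty acid synthesis and glucose uptake, 7 rose in aMSCs at P100 against P2 and none fell, where 19.1% of all genes rose, with a median log2 difference of 1.48 beside 0.03. At P30 in aMSCs 3 rose and 2 fell. In yMSCs 1 rose and 0 fell at P30, and 2 rose and 2 fell at P100. Scd, a desaturase that makes monounsaturated fatty acids, fell by 3.46 in yMSCs at P100 (adjusted p = 4.01e-05) and rose by 1.48 in aMSCs (adjusted p = 0.0268). The change differed between aMSCs and yMSCs by 4.94 (adjusted p = 0.000151). Acss2, which makes acetyl-CoA from acetate, rose by 2.57 in aMSCs (adjusted p = 0.000134), and the difference in yMSCs was 0.45 (adjusted p = 0.41). Of 13 tested genes of uncoupling proteins and fatty acid oxidation, 2 rose and 2 fell in yMSCs and 5 rose and 3 fell in aMSCs at P100. Of all genes, 20.6% rose and 18.7% fell in yMSCs, and 19.1% rose and 18.6% fell in aMSCs. Slc25a14, a carrier related to Ucp2, fell in all 4 comparisons, with log2 differences of -1.07 to -0.67. Cpt1a, which brings fatty acids into mitochondria, rose by 0.76 at P30 in yMSCs (adjusted p = 0.0464) and by 1.32 at P100 in aMSCs (adjusted p = 0.00142).

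Adipokines and their receptors were called lower in 5 or 6 of 9 tested genes in each of the 4 comparisons, beside 16.4% to 20% of all genes. Only 1 rose, in yMSCs at P100. Ccl2, a chemokine that draws monocytes, was at least 17.6-fold lower at P100 in yMSCs (adjusted p = 1.64e-05) and at least 44.8-fold lower in aMSCs (adjusted p = 2.27e-06), and was detected in no late group. Rarres2, which encodes the adipokine chemerin, was at least 19.2-fold lower at P100 in yMSCs (adjusted p = 1.23e-09), where no array detected it. In aMSCs its log2 difference was -5.09 (adjusted p = 2.3e-09), with 1 of 3 arrays detecting it. The log2 signal of Ccl2 was 9.55 ± 1.07 (SD, n = 3) for yMSCs P2 and 10.59 ± 2.05 for aMSCs P2, and that of Rarres2 was 9.68 ± 0.60 and 9.94 ± 0.27.

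**Figure D5:**
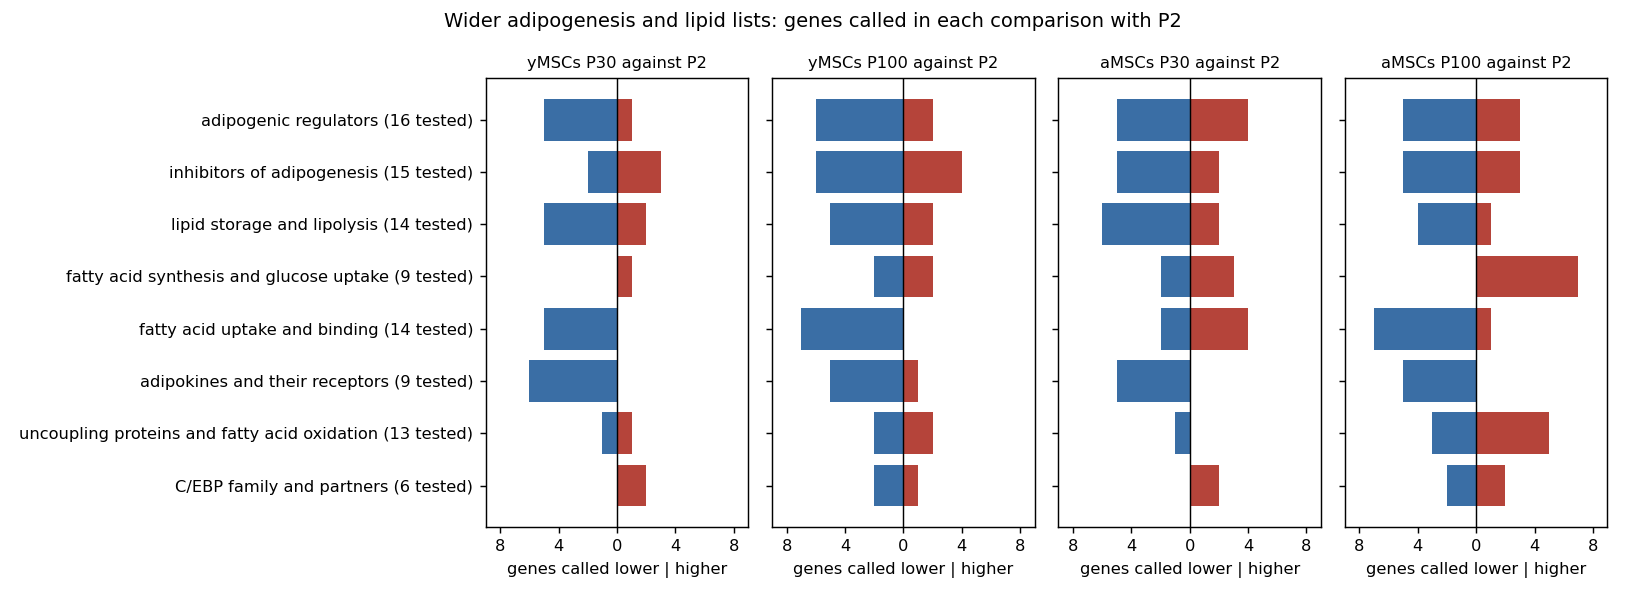
Number of genes called lower (blue, to the left) and higher (red, to the right) in 8 lists of adipogenesis and lipid genes, for the 4 comparisons with P2, with the number tested beside each list. In aMSCs at P100, 7 of 9 genes of fatty acid synthesis and glucose uptake were called higher, and in both donor ages at P100, 7 of 14 genes of fatty acid uptake and binding were called lower.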

How the data were processed

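mRNA was measured on 18 arrays of 6 groups, and the labels gave the donor age, passage and replicate of every array. The authors deposited scanner intensities, neither background-subtracted nor normalized, with a detection p-value per probe; they also deposited background-subtracted rank invariant intensities from BeadStudio 3, used as an alternative. Of 22226 probes, 13192 had 1 gene symbol, 9034 none and 0 several. The 70 probes that do not pair between both tables stayed without a name, and none was a member's.

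Log2 values came from neqc of limma 3.58.1 (R 4.3.3; normexp by detection p, offset 16, quantile normalization). For a gene with several probes the brightest was used. Genes entered the test if some group had a mean detection p of no more than 0.01. The model had 6 group means (12 residual and 4.51 prior degrees of freedom), 12 comparisons and Benjamini-Hochberg adjustment over 9531 genes, two-sided; it was tested on simulated data. A bound for an undetected group uses, on each of its arrays, the higher of the lowest detected signal and the probe's own.

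Named were all 10 members, from each wider list at most 2 called genes with the largest difference over the 4 comparisons with P2, and 3 genes most like each tested member. The members and lists were chosen with earlier results of these data known. Replicate numbers are not stated to pair arrays. Deviations from the group means were correlated, and in 0 of 15 pairs of groups did every same-numbered pair exceed 0.1. The correlations ran from -0.716 to 0.569, both for yMSCs P30 with aMSCs P100. With 3 arrays in a group this cannot show that the arrays are unpaired. Alternatives were other offsets, background corrections, normalizations, filters, thresholds and arrays; leaving out aMSCs P30 replicates 1 and 2 together was added after seeing the data. Protein sequences were not used here.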

Additional observations from a re-analysis of the deposited data

Results flagged for a closer look

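Of 7 genes, 5 had a passage change that differed between aMSCs and yMSCs by the interaction term of limma (aMSCs minus yMSCs, log2 scale), 9 results in all. All of them use late groups, in which donor age and single culture cannot be told apart. Of all genes tested, 11.8% were called for P30 against P2, 13.7% for P100 against P2 and 21.9% for P100 against P30. For P30 against P2 the difference was -1.615 for Lpl, 2.721 for Cfd and -3.567 for Ucp2. For P100 against P2 it was 3.107 for Lpl and 3.353 for Cfd. For P100 against P30 it was 1.412 for Cebpa, 4.723 for Lpl, -0.931 for Cd36 and 2.121 for Ucp2. Lpl changed direction between the comparisons: it fell further in aMSCs up to P30 and further in yMSCs up to P100. Under at least 1 alternative, 5 of the 9 were lost: Lpl and Cfd for P30 against P2, and Cebpa, Cd36 and Ucp2 for P100 against P30. Cd36 entered the test only through yMSCs P100. For Cd36 no array of aMSCs detected the gene, and for Cfd no late array of yMSCs did.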

How the results depend on the processing

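Of 42 calls of a member in a comparison, 26 held under each of the 13 alternatives and with each of the 18 arrays left out in turn, 16 were lost under at least 1, and 0 changed sign. Not every alternative was a strict check. No fold threshold could not lose a call, and the mean of all probes left the signal of each member, with 1 probe, as it was. Kept throughout were the falls of Pparg, Cebpa and Lpl and the rise of Ucp2 at P100 against P2 in both donor ages.

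The numbers of members called that moved by over 1.5 times were as follows, with the number as reported in parentheses, and smaller moves are left out. An offset of 50 gave 1 for aMSCs against yMSCs at P100 (3), 1 for aMSCs P100 against P30 (2), 2 for yMSCs P100 against P30 (4) and 2 for the interaction of P100 against P30 (4). Fitting only the arrays compared gave 5 at P100 and 0 at P2 (2) for aMSCs against yMSCs. Array weights, whose estimation stopped before it converged, gave 4 for aMSCs against yMSCs at P2, 1 for aMSCs P100 against P30 and 2 for the interaction of P100 against P30. The authors' rank invariant intensities, no detection filter and a fold of at least 2 each gave 1 for aMSCs P100 against P30. Without aMSCs P30 replicates 1 and 2, added after seeing the data, the number was 1 for aMSCs P100 against P30, 3 for aMSCs P30 against P2 (5), and 1 for the interactions of P30 against P2 (3) and of P100 against P30. A replicate block gave 4 in place of 2 for the interaction of P100 against P2, adding Pparg and Ucp2. It moved no other number, but for aMSCs P100 against P30 it lost Lpl (adjusted p = 0.0538) and added Cebpa (adjusted p = 0.049). Whether the replicate numbers pair the arrays is not stated. With 1 array left out the numbers ran from 1 to 3 for aMSCs P100 against P30, 3 to 5 for aMSCs P30 against P2, 2 to 4 for the interaction of P100 against P2, 2 to 5 for that of P100 against P30, 2 to 3 for that of P30 against P2, 2 to 3 for aMSCs against yMSCs at P2 and at P30, 5 to 6 for yMSCs P30 and P100 against P2 and 3 to 4 for yMSCs P100 against P30. The cause was not tested. Signal over background limits Pparg, Cebpa, Cd36 and Cfd, which lie near the detection limit at P30 and P100. It also limits Lpl in yMSCs P100, aMSCs P30 and aMSCs P100 (mean intensity 55.4, 69.5 and 101) and Ucp2 in aMSCs P30 (86.5).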
